A study of Mus musculus with 2 samples.

Results

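Bone morphogenetic protein (BMP) signalling and the Id factors were followed here through 10 genes, chosen by symbol: the ligands Bmp2, Bmp4 and Bmp7, the receptors Bmpr1a and Bmpr2, the inhibitors Smad6 and Bambi, and the inhibitors of DNA binding Id1, Id2 and Id3. All 10 members were found among the 25668 gene symbols. RNA came from cultured organoids of mouse fallopian tube (oviduct) epithelium, with 1 control library, labelled WT, and 1 library labelled Trp53 KO. The control organoids were set up from a mouse of the Fezh/J knock-in line, in which the CAG promoter drives Cas9 and EGFP from the ROSA locus, and both libraries carry the treatment label conditioned medium. The sources used here do not give the mouse's age, how many clones were used, or whether animals were pooled. The comparison asks how loss of Trp53, the gene of the tumour suppressor p53, goes with expression in this epithelium.

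BMPs are secreted dimers of the TGF-beta superfamily. They bind a complex of type I receptors, such as Bmpr1a, and type II receptors, such as Bmpr2, and the type I kinase phosphorylates SMAD1, SMAD5 and SMAD9, which enter the nucleus with SMAD4. Id1, Id2 and Id3 are classical targets of these SMADs in many cells. Id proteins have a helix-loop-helix domain but no basic DNA-binding region, so they bind E-proteins and keep them off DNA. Smad6 and Bambi are induced by the pathway and restrain it, Smad6 inside the cell and Bambi as a pseudoreceptor without a kinase domain. In the female reproductive tract BMPs are best known as local signals between epithelium, stroma and ovary.

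The Id genes are close relatives. Id2 was level, Id1 and Id4 had more RNA in the knockout library, and Id3 was too low to compare. The 250 bases upstream of the annotated start are shown for the 3 Id genes that have an entry in the RefSeq promoter table (build GRCm38.p6). Capitals mark GGCGCC, the core of SMAD1/5 sites, and GTCT on either strand (AGAC on the printed strand), the SMAD4 box. The windows lie at chr12:25096093-25096342 on the minus strand for Id2, chr4:136143572-136143821 on the plus strand for Id3 and chr13:48260866-48261115 on the plus strand for Id4, and each is printed 5′ to 3′ on the strand of its gene.
Id2: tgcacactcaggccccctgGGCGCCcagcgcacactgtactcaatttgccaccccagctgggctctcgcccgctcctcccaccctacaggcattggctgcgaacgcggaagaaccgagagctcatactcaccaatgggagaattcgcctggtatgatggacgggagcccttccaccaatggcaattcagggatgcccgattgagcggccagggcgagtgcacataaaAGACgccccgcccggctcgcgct
Id3: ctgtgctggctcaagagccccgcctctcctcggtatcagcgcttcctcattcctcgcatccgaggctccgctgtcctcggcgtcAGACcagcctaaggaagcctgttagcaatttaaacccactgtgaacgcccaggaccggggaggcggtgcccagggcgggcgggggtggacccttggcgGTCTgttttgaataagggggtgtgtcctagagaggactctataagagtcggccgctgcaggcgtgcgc
Id4: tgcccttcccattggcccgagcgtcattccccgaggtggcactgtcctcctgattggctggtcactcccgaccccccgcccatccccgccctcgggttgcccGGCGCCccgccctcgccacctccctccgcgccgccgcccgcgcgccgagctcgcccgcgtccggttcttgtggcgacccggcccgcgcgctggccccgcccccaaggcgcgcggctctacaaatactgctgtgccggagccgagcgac

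GGCGCC was present 1 time in the Id2 window, starting 231 bases before the start, and 1 time in the Id4 window, 148 bases before it. The Id3 window held none, and 9.59% of all 32851 windows of this length held it. GTCT or AGAC was present 1 time in the Id2 window, 2 times in the Id3 window and 0 times in the Id4 window, and 82.9% of all windows held it. A joined form, GGCGCC followed after 5 bases by GTCT, searched on both strands and overlapping both single motifs, was in none of these 3 windows and in 0.0700% of all. Of the 10 members, 6 had a window that was searched: Bmp4, Bmpr1a, Bmpr2, Id2, Id3 and Smad6. Id1, Bmp2 and Bmp7 had no entry among the promoter windows. Entries on chromosome 18, where Bambi lies, were passed over for the members, so Bambi was not searched. GGCGCC was also found in the windows of Bmpr1a and Bmpr2, at 198 and 105 bases before the start. The windows holding it were from 62.8% (Id2) to 78.8% (Bmpr1a) G or C. Those without it were from 62.8% (Id3) to 66.8% (Smad6). The share of 9.59% is over all windows and was not matched for G and C content. These are letter matches in a short window and were not set against any binding data.

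Values are TPM, in which read numbers are divided by transcript length and brought to a common total, so levels can be compared between genes. Differences are knockout minus control on the log2(TPM + 1) scale, and the pseudocount of 1 understates the change of low genes. Genes whose TPM averaged 1 or more over both libraries are called measured, and those 2-fold or more apart on this scale are called higher or lower. With a single library per genotype nothing could be tested, no SD is given, and every statement compares these 2 libraries. Numbers of reads were recovered from the TPM as described under the processing, and ratios of TPM carry an exact Clopper-Pearson interval at 95% that covers counting error only. Whether these numbers count reads or read pairs is not known. If both reads of a pair were counted, the intervals are too narrow. In bulk RNA, fewer cells of a type and less RNA per cell cannot be told apart.

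Trp53 was 83.2 and 2.42 TPM in the control and knockout libraries, a difference of −4.62. Depth was uneven, at 100099572 recovered or estimated reads in the control library against 27688375 in the knockout library. Of 11228 measured genes 937 (8.35%) were higher and 1715 (15.3%) lower, and the median difference over all of them was −0.17. After quantile normalization the median was 0.03 and the split 1292 higher and 1321 lower. The 8 secretory and general epithelial markers summed to 7049 and 6002 TPM, most of it from Krt7, Krt8 and Krt18, with 0 higher and 2 lower. The 2 were Ovgp1, the oviduct glycoprotein of secretory cells, at 7.44 and 0.192 TPM, and Wt1, at 35.3 and 7.85 TPM, while Pax8 was 44.8 and 46.0 TPM. The 8 multiciliated cell markers summed to 299 TPM in the control library against 70.3 TPM in the knockout library, with 7 of 7 measured lower and Tppp3, Ccdc153 and Dnah5 listed at 0 in the knockout. The 5 basal and squamous markers summed to 4.70 and 3005 TPM, with 5 of 5 higher. Of these 5, 4 were under 1 TPM in the control library and passed the filter through the knockout library alone. Likewise 4 of the 7 multiciliated markers were under 1 TPM in the knockout library and passed through the control. The part of these shifts in the BMP and Id values was not tested.

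Among the 10 members, 7 were measured, and of these 0 were higher, 2 were lower and 5 were within 2-fold. The shares of all measured genes are the 8.35% and 15.3% given above. The 2 lower members, Bmp7 and Bambi, passed the filter on low values through the control library alone, since both were under 1 TPM in the knockout library. Bmp2, Bmp4 and Id3 were not measured by this filter. At a 4-fold threshold 0 members were higher and 1, Bambi, was lower, where 2.38% and 5.89% of all measured genes were. The median difference of the 7 measured members was −0.34, against −0.17 for all measured genes. Without regard to size, 9 of 10 members had a lower TPM in the knockout library and Id1 alone a higher one. A difference below that of Id2 (−0.01) was seen in 59.3% of all measured genes. The 9 include Id2, level within counting error, and Bmp2 and Id3, whose counting intervals hold equality.

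**Figure D1:**
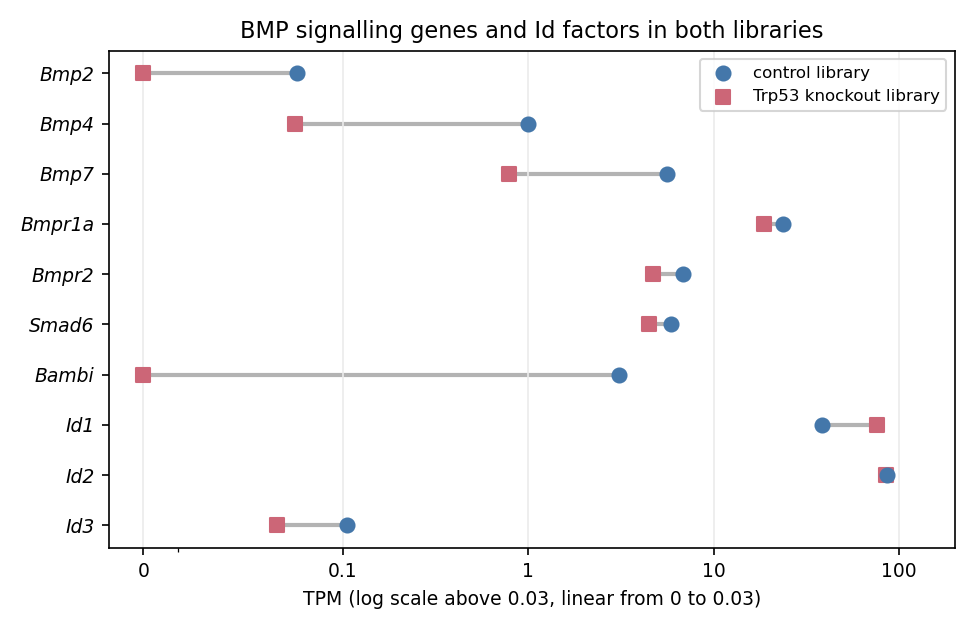
TPM of each member in the control library (circles) and the Trp53 knockout library (squares), 1 library each, on an axis that is logarithmic above 0.03 TPM. Bmp7 stood at 5.61 and 0.786 TPM and Bambi at 3.10 and 0 TPM, while Bmpr1a, Bmpr2, Smad6 and Id2 lay close together and Id1 stood at 38.3 and 76.2 TPM.

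In the control library the order by level was Id2 (86.0 TPM), Id1 (38.3), Bmpr1a (23.8), Bmpr2 (6.80), Smad6 (5.91), Bmp7 (5.61), Bambi (3.10), Bmp4 (0.993), Id3 (0.105) and Bmp2 (0.0567). In the knockout library it was Id2 (85.2 TPM), Id1 (76.2), Bmpr1a (18.8), Bmpr2 (4.72), Smad6 (4.47), Bmp7 (0.786), Bmp4 (0.0548) and Id3 (0.0442), with Bmp2 and Bambi listed at 0. The first 6 places were the same in both libraries. No spread between samples is known, so it cannot be said which neighbours in these orders differ.

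The 3 ligand members were under 6 TPM in both libraries, and Bmp7 was the 1 measured and lower in the knockout. Bmp7, a ligand made by many epithelia, was 5.61 TPM in the control (1225 reads) against 0.786 TPM in the knockout library (51 reads). The control level was 7.14-fold that of the knockout, with a counting interval of 5.39 to 9.64, and the log2 difference was −1.89. Bmp4, which patterns tubular organs and also comes from stroma, was 0.993 TPM from 122 reads and 0.0548 TPM from 2 reads. Its control to knockout ratio was 18.1, and the few knockout reads leave an interval of 4.91 to 151. Bmp2, the close relative of Bmp4, was 0.0567 TPM from 12 reads and was listed at 0 in the knockout library. At an equal TPM 3.57 reads would be due there, and the interval of the knockout to control ratio, 0 to 1.21, holds equality, so a difference in Bmp2 was not detectable at this depth.

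Of the 15 ligand genes listed, Bmp7 was the 1 measured, and 9 had a lower and 3 a higher TPM in the knockout library. In 59.3% of all measured genes the difference was below −0.01. Among all 15, 3 were listed at 0 in both libraries. The ligand genes summed to 7.53 and 1.77 TPM in the control and knockout libraries. The 3 with a higher TPM were Bmp5, Bmp6 and Amh, all under 0.5 TPM in both libraries. Bmp6 was 0.170 and 0.447 TPM, with a knockout to control ratio of 2.64 and an interval of 1.54 to 4.41. It was 28 estimated reads in the knockout library and is named after its value was seen. Levels of Bmp8a and Bmp8b, near-identical neighbours that can share reads, were under 0.3 TPM in both libraries.

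Of 6 listed proteases that mature these ligands or free them from antagonists 4 were measured, 0 higher and 1 lower, with a median difference of −0.76. Of all measured genes 8.35% were higher and 15.3% lower. In the knockout library 3 of the 6 reached 1 TPM. The lower one was Bmp1, which is named as a BMP but is a metalloprotease that cleaves the antagonist chordin and procollagens. It was 13.7 and 0.685 TPM, 19.98-fold apart with an interval of 14.8 to 27.2. Furin, the main proprotein convertase for BMP precursors, was 45.2 and 28.3 TPM, a log2 difference of −0.65.

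All 4 measured antagonists had less RNA in the knockout library. Of 18 listed, 4 were measured, 0 higher and 2 lower, with a median difference of −0.95, where 15.3% of all measured genes were lower. The 2 became 0 after rescaling by the median ratio, after quantile normalization or with a pseudocount of 5, 1 relative to the chromosome median or at a mean TPM of at least 5, and 4 without mitochondrial and the 100 highest genes. Of all listed, 16 of 18 had a lower TPM in the knockout library, 9 of them listed at 0 there. By comparison, 59.3% of all measured genes had a difference below −0.01. Crim1, a membrane protein that tethers BMPs, was 31.3 and 14.4 TPM, a difference of −1.07. Dand5, a DAN family antagonist of nodal and BMPs, was 4.54 and 1.57 TPM, a difference of −1.11. Twsg1, which binds BMPs together with chordin, was the highest of the list in both libraries at 43.6 and 24.1 TPM, a difference of −0.83. Chrd, chordin itself, fell just short of the filter and is named after its values were seen, at 1.95 TPM in the control library against 0.0276 TPM in the knockout library, the latter from an estimated 2 reads. The classical antagonists Nog and Grem1 were under 0.1 TPM in both libraries.

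Some receptors were within 2-fold and others were lower, a grouping made by the threshold alone. Bmpr1a, the widely expressed type I receptor, was 23.8 TPM in the control library against 18.8 TPM in the knockout library, a knockout to control ratio of 0.790 with an interval of 0.752 to 0.830. Bmpr2, the type II receptor, was 6.80 and 4.72 TPM, a ratio of 0.694 with an interval of 0.650 to 0.742. Their log2 differences of −0.32 and −0.45 were within 2-fold, and 40.8% and 33.9% of all measured genes had a lower difference. The activin type receptors that BMPs also use were near them, with Acvr1 at 3.84 and 3.05 TPM, Acvr2a at 12.0 and 9.78 TPM and Acvr2b at 1.40 and 2.09 TPM. The Acvr1 difference of −0.26 turned to 0.07 after quantile normalization.

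Further receptors were more than 2-fold lower. Bmpr1b, the type I receptor that shares ligands with Bmpr1a, was 6.47 TPM in the control library against 0.645 TPM in the knockout library, 10.03-fold lower with an interval of 7.78 to 13.2. Acvrl1, a type I receptor best known in endothelium, was 9.57 and 0.113 TPM, 84.7-fold lower with an interval of 42.6 to 219. The knockout value rests on an estimated 7 reads. The endothelial markers Pecam1, Kdr and Tek were at or near 0 in both libraries, and the 4 endothelial markers summed to 0.0829 and 0.0269 TPM.

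Co-receptors completed the list. Rgmb, a co-receptor that presents BMPs, was 12.1 and 5.24 TPM, Neo1, neogenin, which binds it, was 9.77 and 3.62 TPM, and Tgfbr3, betaglycan, was 2.96 and 0.457 TPM. Of 14 receptors and co-receptors 10 were measured, 0 higher and 5 lower, with a median of −0.76, where 15.3% of all measured genes were lower. The 5 became 3 relative to the chromosome median, and 2 after quantile normalization, with a pseudocount of 5 or at a mean TPM of at least 5. Of the 5 lower, 3 passed the filter with a knockout level under 1 TPM.

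All measured SMADs, and all their measured regulators but Bambi, were within 2-fold. Smad6, the inhibitory SMAD that is most selective for BMP signals, was 5.91 TPM from 1046 reads in the control and 4.47 TPM from 235 reads in the knockout library. Its knockout to control ratio was 0.756 with an interval of 0.653 to 0.872, and its log2 difference was −0.34. Smad7, the broader inhibitory SMAD, was 1.76 and 1.25 TPM, a difference of −0.29 that became 0.19 after quantile normalization. The signal-carrying Smad1 was 8.48 and 9.02 TPM, Smad5 was 12.9 and 7.89 TPM, and their partner Smad4 was 36.1 and 47.4 TPM. Smad9 was listed at 0.00626 TPM from 2 reads in the control library and at 0 in the knockout library, so it could not be compared.

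Bambi, the pseudoreceptor, was the exception among these regulators. It was 3.10 TPM from 937 reads in the control library and had 0 reads in the knockout library, where 278 would be due at an equal TPM. With its value in that library raised to a floor of 3 reads it was 92.8-fold lower, and the 95% interval begins at 75.3-fold. Its log2 difference was −2.04. Of 16 SMADs and regulators 14 were measured, 0 higher and 1 (7.14%) lower, the 1 being Bambi, with a median of −0.25. Of all measured genes 8.35% were higher and 15.3% lower. Smurf1, a ubiquitin ligase that marks SMAD1 and SMAD5 for degradation, was 5.22 and 10.1 TPM, a difference of 0.84 that passed 2-fold under 3 of 7 alternatives, and its relative Smurf2 was 8.85 and 5.205 TPM, a difference of −0.67.

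**Figure D2:**
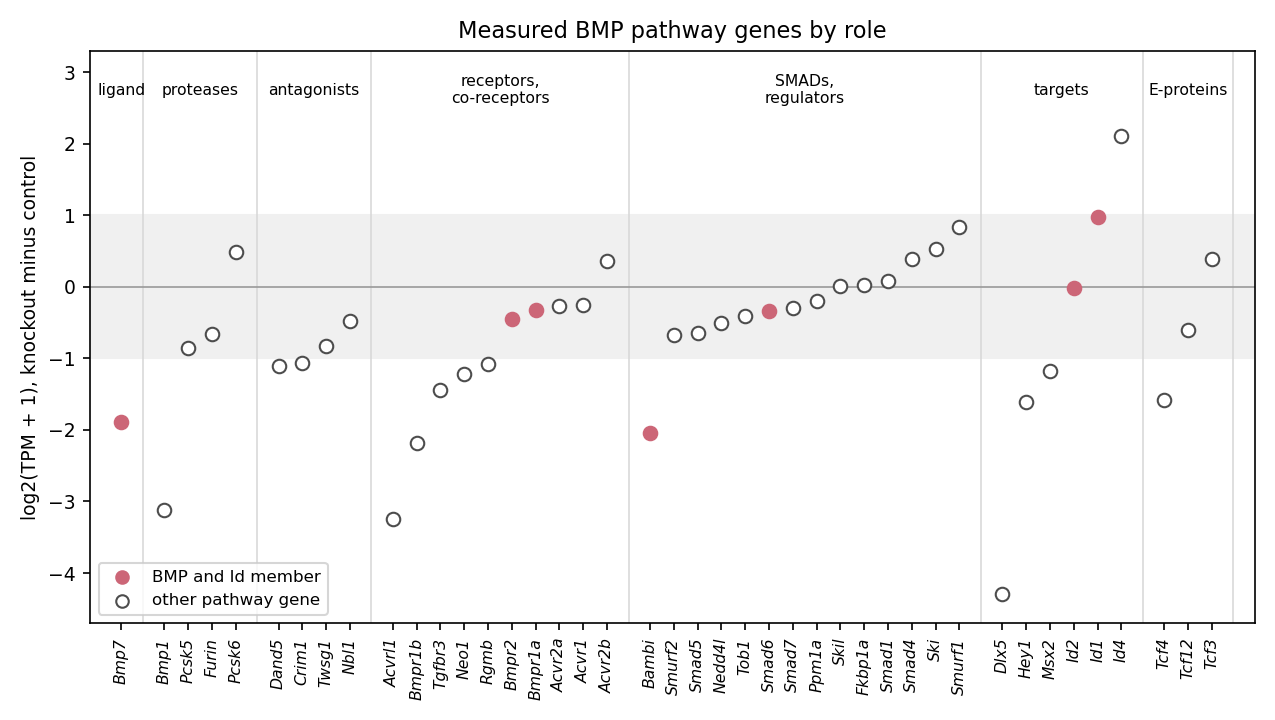
Differences in log2(TPM + 1), knockout minus control, of the 42 measured pathway genes by role, 1 point a gene, with the 7 measured members filled and the range within 2-fold shaded. A gene on more than 1 list is drawn once. The SMADs and regulators other than Bambi stay inside the shaded range, while Acvrl1 (−3.25), Bmp1 (−3.12) and Dlx5 (−4.30) lie far below it and Id4 (2.10) above it.

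The Id factors differed from each other: Id1 and Id4 had more RNA in the knockout library, Id2 was level within counting error, and Id3 was too low to compare. Id1 was 38.3 TPM in the control (2643 reads) and 76.2 TPM in the knockout (1564 reads), a ratio of 1.99 with an interval of 1.87 to 2.12. Its log2 difference of 0.98 was just under the 2-fold threshold, above that of 91.4% of measured genes, and passed it under 3 of 7 alternatives. Id2 was 86.0 TPM in the control against 85.2 TPM in the other library, a ratio of 0.990 with an interval of 0.950 to 1.03. The sign of its difference of −0.01 changed under 4 alternative scalings, and its highest value was 0.27.

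Id3 was barely present, at 0.105 TPM from 8 reads and 0.0442 TPM from 1 read. Its knockout to control ratio was 0.421 with an interval of 0.00948 to 3.14, so no difference was detectable at this depth. Id4, the family member outside the 10 genes, was 0.637 TPM from 146 reads in the control and 6.04 TPM from 411 reads in the knockout library. It was 9.47-fold higher with an interval of 7.82 to 11.5, a log2 difference of 2.10. Among the Id windows printed above, those of Id2 and Id4 both hold GGCGCC, and their differences were −0.01 and 2.10. Id1 had no window, and a relation of motif to expression was not tested.

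The summed level of the 4 Id genes was 125.1 TPM in the control library against 167 TPM in the knockout library. Id1 made up 30.6% of it in the control library against 45.5% in the other, and Id2 68.8% and 50.9%. The ratio of Id1 to Id2 was 0.445 and 0.895. Id4 made up 0.510% and 3.60%. Id2 was the highest of the 4 in both libraries.

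The E-proteins, which Id proteins bind, also differed from each other. Tcf3, which encodes E2A proteins, was 23.4 and 31.0 TPM, a difference of 0.39, and Tcf12 was 10.3 and 6.49 TPM, a difference of −0.60. Tcf4 was 4.36 and 0.794 TPM, 5.49-fold lower with an interval of 4.58 to 6.68. Of the 7 Id and E-protein genes 6 were measured, 1 higher and 1 lower (16.7% each), with a median of 0.19. Both passed the filter through 1 library alone, Id4 through the knockout and Tcf4 through the control. Of all measured genes 8.35% were higher and 15.3% lower.

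Outside the Id, SMAD and Bambi genes, 3 of the genes known as BMP targets in development, Dlx5, Hey1 and Msx2, were measured, and all 3 were lower. Of 16 targets listed, which include Id1 to Id4, Smad6, Smad7 and Bambi, 9 were measured, 1 higher (Id4) and 4 lower (Bambi, Dlx5, Hey1 and Msx2). Of all measured genes 8.35% were higher and 15.3% lower. Of the 4 lower, 3 were under 1 TPM in the knockout library and passed the filter through the control. Id4 was under 1 TPM in the control library and passed it through the knockout. The 4 became 3 relative to the chromosome median, 2 after quantile normalization or at a mean TPM of at least 5, and 1 with a pseudocount of 5. The 1 higher became 0 or 2 under some settings. The median was −0.34, or −0.49 as a log2 ratio with values below 3 reads raised to that floor. Dlx5, a homeobox factor, was 20.98 TPM from 1777 reads and 0.119 TPM from 3 reads, a control to knockout ratio of 176 with an interval of 60.1 to 854. Hey1, a repressor that Notch signals also induce, was 2.05 TPM and listed at 0. It was 29.2-fold lower against the floor of 3 reads, with a 95% interval that begins at 23.6-fold. Msx2, a homeobox factor, was 8.78 and 3.34 TPM, a difference of −1.17. Its paralog Msx1, below the filter and named after its values were seen, was 1.06 TPM from 122 reads and listed at 0. Msx1 was 12.1-fold lower against the same floor, with an interval that begins at 9.68-fold. Of the 16, 14 had a lower TPM in the knockout library, and Id1 and Id4 a higher one. Among all measured genes, 59.3% had a difference below −0.01. The 14 include Id2, level within counting error, Id3 (8 reads in the control and 1 in the knockout) and Smad9 (2 and 0).

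Over all 83 pathway genes listed, 42 were measured, 1 was higher and 14 were lower, or 2.38% and 33.3%, against 8.35% and 15.3% of all measured genes. After quantile normalization it was 3 higher and 7 lower of 41 measured, where 11.5% and 11.8% of all measured genes were. Under the 7 alternatives that recompute a gene's own difference, Acvrl1, Bmp1, Bmpr1b and Dlx5 were at least 2-fold lower in 7 of 7, while Crim1, Dand5 and Rgmb, close to the threshold, were in 3 of 7. The filter at a mean TPM of 5 left out Acvrl1 and Bmpr1b. Of the 14 lower genes 9 were under 1 TPM in the knockout library and so passed the filter through the control library. The 1 higher gene, Id4, passed it through the knockout library. The median difference of the 42 was −0.49, and −0.60 as a log2 ratio with values below 3 reads raised to that floor. Lists and members were chosen with earlier results of these data known.

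Markers of stromal cells, a usual source of BMP ligands and antagonists, were at or near 0 in both libraries. The 7 fibroblast markers summed to 0.0974 TPM in the control library against 0 TPM in the knockout library, with Col1a2 listed at 0 in both. Of the 4 smooth muscle markers Myh11, Des and Cnn1 were at or near 0 in both libraries, and Acta2 was 1.07 and 17.8 TPM. Among the 5 immune markers Cd3e and Cd79a were at 0 in both, and their sum, 25.6 and 16.0 TPM, was nearly all Cd68.

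Position on the genome moved with the differences. Genes of chromosome 4 had a median difference of 0.63 and those of chromosome 2 of 0.20, while the medians of the other autosomes and the X chromosome ran from −0.36 to −0.14. Id1, Bmp7 and Bmp2 lie on chromosome 2 and Id3 on chromosome 4. On chromosome 2, 12.0% of 895 measured genes were higher and 10.3% lower. Less the median of the other chromosome 2 genes, the Id1 difference was 0.78 and the Bmp7 difference −2.09. Bambi, on chromosome 18, was −1.78 relative to its chromosome, Id2, on chromosome 12, was 0.27, and Bmpr1a, Bmpr2 and Smad6 were −0.08, −0.16 and −0.03. The part of chromosome 2 as a whole in the Id1 value was not tested.

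**Figure D3:**
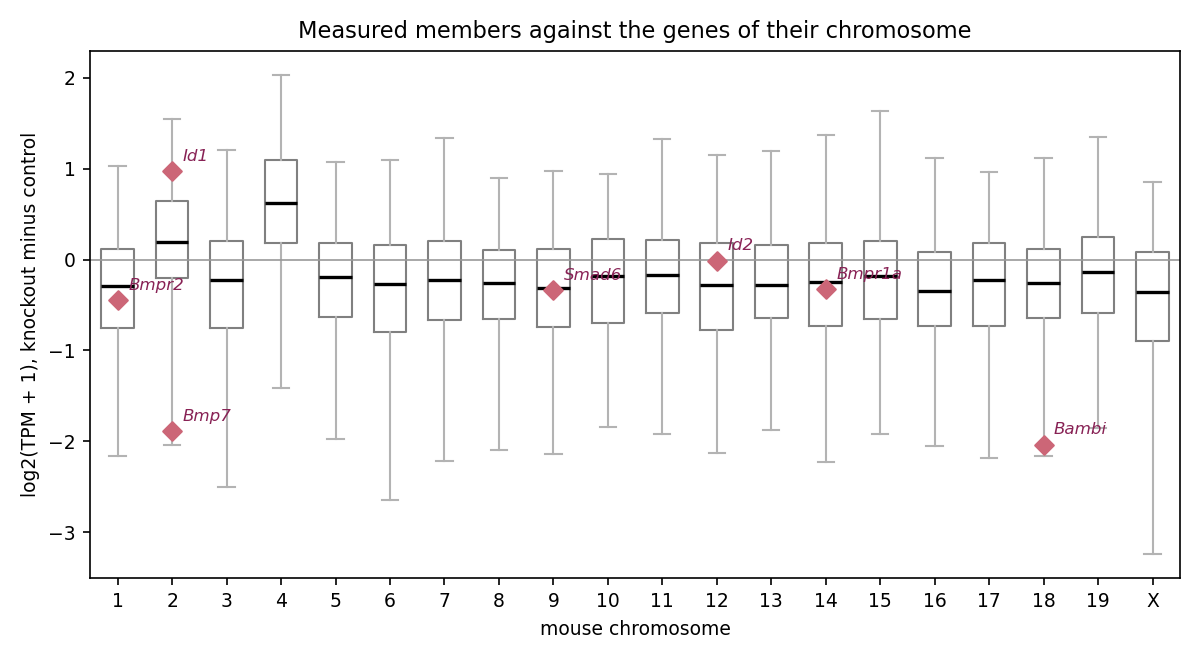
Differences in log2(TPM + 1), knockout minus control, of the measured genes of each chromosome (line, median; box, quartiles; whiskers, the percentiles 5 to 95), with the 7 measured members as diamonds. Id1 and Bmp7 lie on opposite sides of the chromosome 2 median of 0.20, and Bmpr1a, Bmpr2 and Smad6 lie within the boxes of their chromosomes.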

How the data were processed

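The authors deposited TPM for 25668 gene symbols in each of 2 libraries, 1 per genotype. Reads were placed on GRCm39, per the submitters' processing notes, and RNA was extracted with an RNeasy Plus kit and made into strand-preserving paired-end libraries, per the labels' protocols. The sources used here name no aligner, counter, strand setting or annotation.

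The TPM worth of 1 read was sought as the constant that makes reads whole, using the longest protein-coding transcript of GENCODE M21 as gene length (21149 genes). This step was chosen after seeing the data. In a gene of 1000 bases a read added 0.0168 TPM to the control library and 0.0565 TPM to the knockout library. Of genes with 50 to 1000 reads, 35.7% and 31.7% came out within 0.02 of a whole number, against 3.99% and 3.96% for other constants. Reads were whole for 8 of 10 members, and are estimates for Bmpr1a and Id2. Other genes whose reads are estimates assume this length. M21 has an older build, so only its lengths, gene types and chromosomes were used, and promoter windows carry the build of their table.

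Opposite-strand exons overlap Bmp4 (Gm15217, listed at 0 in both libraries) and Bmpr1a (Gm17110). Differences and counts used Python 3.11.15, numpy 2.4.6, pandas 2.3.3 and scipy 1.17.1, and were tested on simulated data. Named genes are the 10 members, Trp53, listed genes at least 2-fold apart (up to 8 per list) and core receptors, SMADs and partners. Bmp5, Bmp6, Bmp8a, Bmp8b, Amh, Chrd, Nog, Grem1, Twsg1, Furin, Smurf1, Smurf2 and Msx1 fall outside this rule and were chosen after their values were seen. Members, lists and the rule were chosen with earlier results of these data known. The alternatives tried were pseudocounts of 0.1 and 5, leaving out the filter or raising it to a mean of 5 TPM, the median ratio, quantile normalization, leaving out mitochondrial and the 100 highest genes, the chromosome median, a 4-fold threshold, protein-coding genes only, and, added after seeing the data, ratios with a floor of 3 reads. Protein sequences were not analysed here.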

Additional observations from a re-analysis of the deposited data

How the results depend on the processing

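The 0 higher members became 1 (Id1) after rescaling by the median ratio, quantile normalization, or leaving out mitochondrial and the 100 highest genes. The 2 lower members became 0 with a pseudocount of 5 or a mean TPM of at least 5, and 1 (Bambi) at 4-fold. The members' median was −0.19 by the median ratio, −0.16 after quantile normalization and −0.0776 relative to the chromosome median. Over the pathway genes the 1 higher gene became 0 with a pseudocount of 5 or a mean TPM of at least 5, 3 by the median ratio or quantile normalization, and 2 without mitochondrial and the 100 highest genes or relative to the chromosome median. The 14 lower became 4 with a pseudocount of 5, 6 at a mean TPM of at least 5, 7 after quantile normalization and 5 at 4-fold. Their median was −0.25 with no filter and −0.21 after quantile normalization. Counts over all genes were 563 higher and 930 lower with a pseudocount of 5, 1091 lower at a mean TPM of at least 5, and 267 and 661 at 4-fold. List medians changed sign to 0.0102 for SMADs and regulators at a mean TPM of at least 5, to 0.0157 for targets after quantile normalization and to −0.0140 for Id factors and E-proteins with no filter. Filters on low values leave a single gene's difference as it is, so they give no value for it. Under the other 7 alternatives the differences of Bmp7 and Bambi were below 0, from −2.84 to −0.87 and from −6.54 to −0.70. Fewer genes pass the stricter filter by construction, and the other causes were not tested. With 1 library per genotype the spread between samples is unknown, and below about 0.1 TPM the members rest on 12 or fewer reads. No paired analysis was possible because each group has 1 library.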
